A study of Mus musculus with 8 samples.

Results

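The mesothelial-like cells of a pancreatic tumor are described here. They were chosen as the cells of the medium tumor with 2 or more unique molecular identifiers (UMIs, each standing for 1 captured mRNA molecule) in sum over Upk3b and Nkain4. This rule found 63 of the 2812 cells of that tumor (2.24%, exact 95% binomial interval 1.73 to 2.86%), and the series holds 4345 cells in all. The data are single-cell RNA profiles from 1 medium and 1 large pancreatic ductal adenocarcinoma of KPC mice, captured with the 10x Genomics Chromium Single Cell 3′ kit (v2 chemistry). Both tumors grew in untreated mice of the KPC strain, which carry LSL-Trp53R172H/+ and Pdx-1-Cre among their alleles, so that Cre is driven by the promoter of Pdx1, a gene of the pancreatic lineage, and mesothelial cells are not among the cells that this promoter is meant to target. The age of the mice is not given in the sources used here, and each tumor, with its 4 technical replicates in 1 table, is 1 sample. The cells come from a single animal's tumor, and for that reason neither tests nor p-values are given. Intervals are exact 95% intervals and cover counting error only.

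The mesothelium is the thin epithelial sheet that lines the peritoneum and covers the pancreas and other abdominal organs. It comes from the embryonic mesoderm, and it therefore joins epithelial traits (keratins, tight junctions, microvilli) with genes otherwise known from connective tissue, such as the transcription factor Wt1. It releases lubricants, protease inhibitors and complement proteins into the serous fluid. Upk3b encodes a uroplakin, a membrane protein known from the bladder lining and from mesothelium, and Nkain4 encodes a small membrane protein that interacts with the sodium pump.

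The 63 cells held 377121 UMIs, with 2776 UMIs in the shallowest cell, a median of 4831 and 13973 in the deepest. A count of 0 over all of them allows a level of up to 7.96 counts per 1000000 UMIs (CPM) when 3 counts are taken as the limit. The rest of the medium tumor had 2749 cells with a median of 5460 UMIs. The tables of the tumors shared 5 cell barcodes, and 0 of these belonged to the mesothelial-like cells. To set them against other cells of the same tumor, each cell was placed in a class when at least 3 of 6 genes fixed for that class were seen in it, and only cells with 0 UMIs of Upk3b and Nkain4 were kept. This gave 58 fibroblasts (283581 UMIs), 1608 carcinoma cells (12587327 UMIs) and 303 macrophages (1446598 UMIs). The genes that define these classes are Col1a1, Col1a2, Col3a1, Pdgfra, Dcn and Lum for fibroblasts, Epcam, Krt7, Cldn3, Cldn4, Cldn7 and Elf3 for carcinoma cells, and C1qa, C1qb, C1qc, Csf1r, Tyrobp and Fcer1g for macrophages, and their differences between the classes and the mesothelial-like cells are set by that choice.

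Both genes of the rule were seen in 43 of the 63 cells, Nkain4 alone in 17 and Upk3b alone in 3. The rule gave a median of 5 UMIs per cell and 24 in the highest cell. Upk3b ranged from 0 to 8 UMIs per cell with a median of 2, and Nkain4 from 0 to 20 with a median of 3. As these counts chose the cells, the summed levels of 398 CPM for Upk3b and 737 CPM for Nkain4 are a description only. Just inside the threshold stood 18 cells with 2 UMIs, and just outside it 93 cells with 1 UMI. By the class rule, 54 of the 93 cells with 1 UMI were carcinoma cells and 11 were fibroblasts, while of the 18 cells with 2 UMIs 11 were fibroblasts and 4 were carcinoma cells. Of the 19 cells with 10 or more UMIs, 18 met the fibroblast class, which rests in part on collagens and Dcn that mesothelial cells make too. Over all 63 cells, 51 fell into the fibroblast class, 5 into the carcinoma class, 1 into the macrophage class and 6 into none. At least 3 carcinoma, macrophage or endothelial class genes were seen in 20 of the 63 cells, often beside fibroblast genes, and the values of the other 43 cells are given below where they matter. Whether droplets with more than 1 cell play a part was not tested.

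**Figure D1:**
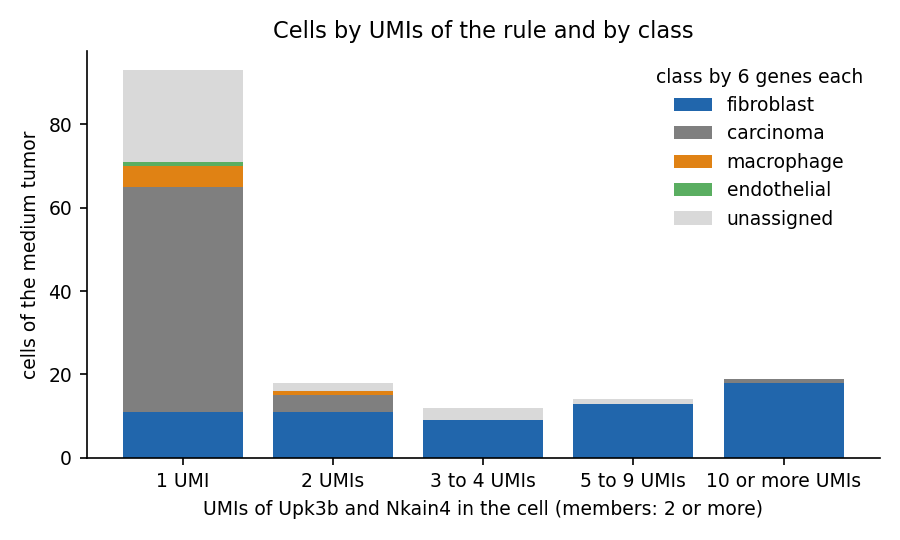
Number of cells of the medium tumor (y axis) by their UMIs of Upk3b and Nkain4 (x axis), coloured by the class that the cell's class genes give. The 93 cells with 1 UMI, outside the rule, are mostly carcinoma cells (54), and 18 of the 19 cells with 10 or more UMIs are in the fibroblast class.

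The label was set against 12 mesothelial markers that the rule did not use (Upk1b, Msln, Wt1, Lrrn4, Muc16, Bnc1, Rspo1, Gpm6a, Pkhd1l1, Rarres2, C3 and Igfbp6). Among them Rarres2, C3 and Igfbp6 are working markers of these cells, chosen with earlier results of these data known. Counts over all 12 markers are therefore a description only. The mesothelial-like cells had a median of 8 of the 12 markers per cell, against 2 in fibroblasts, 1 in carcinoma cells and 0 in macrophages. When Msln, Rarres2, C3 and Igfbp6, which other cells make as well, were left out, at least 1 of the remaining 8 markers was seen in 54 of 63 cells (85.7%), in 44.8% of fibroblasts, in 1.55% of carcinoma cells and in 2.31% of macrophages. The other 9 mesothelial-like cells had none of the 8, and 8 of them were among the 18 cells with 2 UMIs of the rule. Of all 63 cells, 57 had at least 3 of the 12 markers. The data thus bear the mesothelial name for most of the cells. For 8 of the 9 cells without the 8 markers it rests on markers that other cells make as well. For the remaining cell, with 0 of the 12 markers, it rests on the genes of the rule alone.

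Among the surface and signalling markers, Upk1b, the tetraspanin partner of uroplakins, had 82 UMIs in 37 of 63 cells, with 0 UMIs in the lowest cell, a median of 1 and 8 in the highest. Its summed level was 217 CPM (173 to 270 CPM) against 7.05 CPM in fibroblasts, 0.238 CPM in carcinoma cells and 1.38 CPM in macrophages. At one depth of 2500 UMIs per cell, 42.9% of the mesothelial-like cells and 3.45% of fibroblasts still had a UMI of it. Lrrn4, a leucine-rich repeat membrane protein, reached 204 CPM against 3.53 CPM in fibroblasts, where it rests on 1 UMI. Rspo1, a secreted enhancer of Wnt signalling, reached 236 CPM against 10.6 CPM in fibroblasts and 0.0794 CPM in carcinoma cells. Gpm6a, a membrane glycoprotein, reached 202 CPM against 28.2 CPM in fibroblasts. These genes were low in every other class, and the intervals of the mesothelial-like cells and the fibroblasts did not overlap for any of the 4.

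Transcription factors known from mesothelium were also seen in fibroblasts. Wt1, which marks the mesothelium from the embryo on, was at 220 CPM (175 to 273 CPM) in 36 of 63 cells and at 116 CPM (80.1 to 163 CPM) in 21 of 58 fibroblasts, a ratio of 1.89 (1.25 to 2.92). It was at 0.238 CPM in carcinoma cells. Osr1, a zinc finger factor of the lateral mesoderm, was at 210 CPM against 35.3 CPM in fibroblasts (ratio 5.94, 3.07 to 12.9), and Gata6 at 159 CPM against 45.8 CPM. Of 19 mesothelial transcription factors, 11 passed the filter described next against fibroblasts, of which Gata6, Osr1 and Klf4 were at least 2-fold higher and Nr2f2 was at least 2-fold lower, beside 6.97% of all genes tested higher and 9.43% lower. In the 43 cells that met no other class, 5 of 11 were higher, Wt1 (254 CPM, log2 ratio 1.06 against 0.86 over all 63 cells) and Bnc1 among them, and Wt1 was also past 2-fold when every cell was thinned to 2500 UMIs (1.22).

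A gene is called higher or lower here when its CPM, with 10 CPM added on both sides, differed at least 2-fold, among genes whose mean CPM over the compared groups was at least 20. Against all other cells 8.33% of 5533 genes were higher and 6.45% lower. Against fibroblasts 6.97% of 5480 genes were higher and 9.43% lower, and the median log2 ratio over all genes tested was -0.03. Against carcinoma cells 8.92% were higher and 7.76% lower, and against macrophages 10.6% were higher and 8.64% lower. These shares are the background for the counts over gene lists. For the 43 cells that met no other class, 8.32% of 5409 genes were higher than in fibroblasts and 12% lower. For ratios printed with an interval, no CPM was added.

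**Figure D2:**
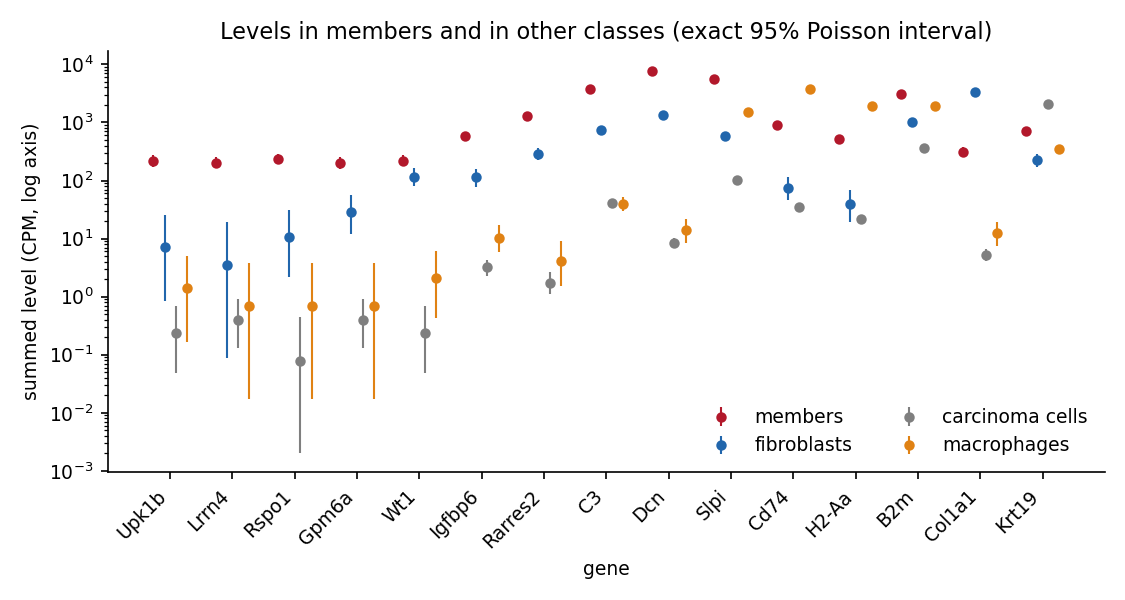
Summed level (y axis, CPM on a log axis) of 15 genes (x axis) in the 63 mesothelial-like cells (members, red), 58 fibroblasts (blue), 1608 carcinoma cells (grey) and 303 macrophages (orange), with exact 95% Poisson intervals as bars. Upk1b, Lrrn4, Rspo1 and Gpm6a sit at 202 to 236 CPM in the members and at 28.2 CPM or below in the other classes, while Cd74 and H2-Aa are higher in the members than in fibroblasts and carcinoma cells and lower than in macrophages.

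Of the 5 working markers, the 3 outside the rule were high. Rarres2, which encodes the chemoattractant chemerin, had between 0 and 40 UMIs per cell with a median of 6, and was seen in 56 of 63 cells. It stood at 1315 CPM (1202 to 1436 CPM), against 289 CPM in fibroblasts, 1.75 CPM in carcinoma cells and 4.15 CPM in macrophages. C3, the central complement protein, had between 0 and 102 UMIs per cell with a median of 20, and stood at 3776 CPM against 733 CPM in fibroblasts and 40.5 CPM in carcinoma cells. Igfbp6, which binds insulin-like growth factor II, stood at 581 CPM against 113 CPM in fibroblasts (ratio 5.15, 3.54 to 7.71). All 3 were also present in fibroblasts, and their levels were 4.55 to 5.15 times as high in the mesothelial-like cells. In the 43 cells that met no other class they were higher still, at 1637 CPM, 4187 CPM and 747 CPM.

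Genes seen in at least 25% of the cells were ranked by their ratio against the rest of the tumor. Dcn, a small collagen-binding proteoglycan and itself a fibroblast class gene, came first with 7746 CPM (7467 to 8032 CPM), 33 UMIs in the median cell and 424 in the highest. Fibroblasts, which were chosen with Dcn among their class genes, had 1340 CPM, a ratio of 5.78 (5.19 to 6.45). Ptgis, the prostacyclin synthase, stood at 766 CPM against 268 CPM in fibroblasts and 1.99 CPM in carcinoma cells. Enpp2, or autotaxin, which makes lysophosphatidic acid, stood at 403 CPM against 38.8 CPM in fibroblasts. Dmkn, a secreted protein known from skin, stood at 610 CPM against 56.4 CPM. Serpina3n at 880 CPM and Stmn2 at 1013 CPM were 2.38 and 3.02 times as high as in fibroblasts. Some genes of this group did not set the mesothelial-like cells apart from fibroblasts. Ccdc80 had a ratio of 1.41, Nnmt of 2.05 (below 2-fold once 10 CPM were added), and Mgp, an inhibitor of calcification, of 0.721 (2951 against 4094 CPM).

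The list of mesothelial identity holds 28 genes. Without Upk3b and Nkain4, which chose the cells and were at 0 in the fibroblasts by that choice, 22 of them passed the filter against fibroblasts, of which 14 were higher and 1, Sulf1, was lower, beside 6.97% of all genes higher. Msln, the mesothelin gene, was at 427 CPM against 63.5 CPM in fibroblasts (ratio 6.73, 4.12 to 11.6), but carcinoma cells had 318 CPM, so Msln did not mark the mesothelial-like cells in this tumor. Efemp1, a fibulin, was at 324 CPM against 21.2 CPM in fibroblasts and 17.1 CPM in carcinoma cells. Muc16, Bnc1 and Pkhd1l1, defining markers in mesothelium, were scarce, with 5, 11 and 8 UMIs in all 63 cells. The retinoic acid enzyme Aldh1a2 was at 45.1 CPM and not higher than in fibroblasts (74.1 CPM, ratio 0.609, 0.302 to 1.21), whereas Aldh1a1 was at 151 CPM against 14.1 CPM.

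Complement genes formed a group in which most tested genes were higher than in fibroblasts. Of 18 complement genes and regulators, 11 passed the filter, and 8 of these were higher and 0 lower (C1ra, C1s1, C2, C3, C4b, Cfb, Cfi and Cd55), with a median log2 ratio of 1.53 against -0.03 over all genes. C1ra and C1s1, the proteases that start the classical pathway, were at 263 and 491 CPM, against 67.0 and 240 CPM in fibroblasts. C1s1 lay at the threshold, with a log2 ratio of 1.00, and of 0.97 after thinning to 2500 UMIs. C2, the next protease of that pathway, was at 183 CPM against 52.9 CPM in fibroblasts and 0.691 CPM in macrophages. C4b was at 488 CPM against 162 CPM. Cfb, the protease of the alternative pathway, was seen in 35 of 63 cells at 186 CPM against 17.6 CPM in fibroblasts (ratio 10.5, 4.30 to 33.4). The inhibitor of C1, Serping1, stood at 915 CPM against 808 CPM in fibroblasts (ratio 1.13, 0.956 to 1.34) and so did not set the cells apart. The regulator Cfi rested on 11 cells, 3 of them among the 43 cells that met no other class, where it was at 19.1 CPM against 68.9 CPM over all 63. In these 43 cells 7 of 10 tested complement genes were higher than in fibroblasts, beside 8.32% of all genes. The chains of C1q, which macrophages make, were scarce, with 2 UMIs of C1qa in 1 cell, 8 of C1qb in 6 cells and 4 of C1qc in 4 cells, and 56 of the 63 cells had 0 UMIs of all 3. The 43 cells had 0, 3 and 2 UMIs of them.

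Genes of antigen presentation by major histocompatibility complex (MHC) class II were higher than in fibroblasts or carcinoma cells. These molecules show peptides to CD4 T cells, and they are made mainly by dendritic cells, macrophages and B cells, and by other cells under interferon gamma. The 7 genes of the list summed to between 0 and 118 UMIs per cell with a median of 7, and 48 of 63 cells had 2 or more UMIs while 8 had 0. Their summed level was 2612 CPM (2451 to 2780 CPM), against 282 CPM in fibroblasts and 9484 CPM in macrophages. Of 6 genes tested against fibroblasts, Cd74, H2-Aa, H2-Ab1, H2-Eb1 and H2-DMa were higher and 0 were lower, beside 6.97% of all genes higher. Cd74, the invariant chain, was at 917 CPM (823 to 1019 CPM) in 46 of 63 cells, against 74.1 CPM in fibroblasts (ratio 12.4, 7.98 to 20.3), 34.9 CPM in carcinoma cells and 3743 CPM in macrophages. On the log2 scale with 10 CPM added its ratio to fibroblasts was 3.46, and 4.55 when only the 49 fibroblasts without UMIs of Upk1b, Lrrn4, Rspo1, Gpm6a or Bnc1 were kept. H2-Aa and H2-Ab1, the chains of I-A, were at 522 and 565 CPM against 38.8 and 60.0 CPM in fibroblasts. H2-Eb1, a chain of I-E, was at 459 CPM against 56.4 CPM, a log2 ratio of 2.82, and of 3.73 against the 49 fibroblasts. That of H2-Ab1 was 3.04, and 4.34 after thinning. Ciita, the coactivator of these genes, had 0 UMIs in the mesothelial-like cells, which allows up to 7.96 CPM.

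**Figure D3:**
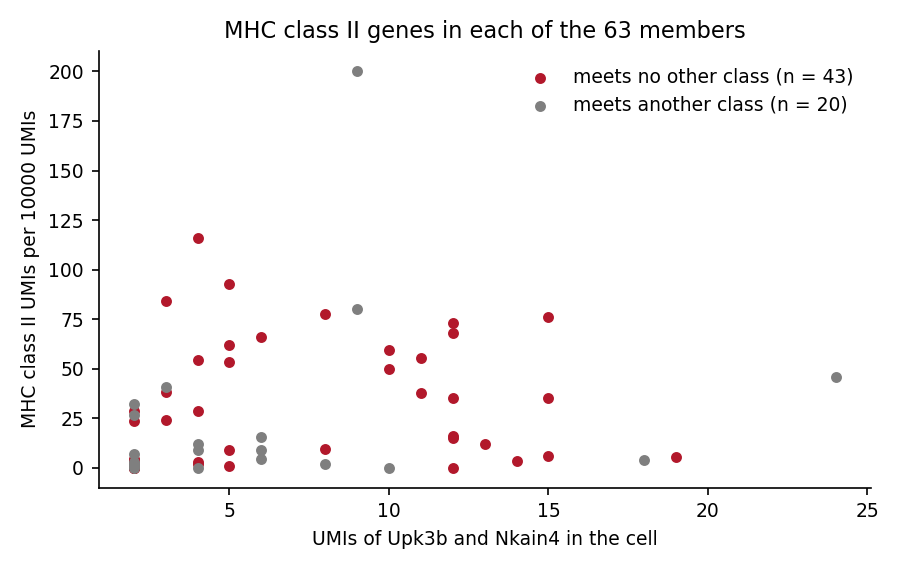
MHC class II UMIs per 10000 UMIs of the cell (y axis) against UMIs of Upk3b and Nkain4 (x axis), 1 point per mesothelial-like cell. Red points are the 43 cells that met no other class and grey points the 20 that met another. Values run from 0 to 200.4 per 10000, the highest in a grey cell, and cells at or near 0 occur across most of the range of the rule's UMIs.

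Markers of macrophages were low in the same cells. The 11 macrophage markers summed to 324 CPM against 23018 CPM in macrophages and 243 CPM in fibroblasts. Lyz2, the leading one, was at 109 CPM against 12675 CPM in macrophages and 112 CPM in carcinoma cells. The ratio of Cd74 to Lyz2 UMIs was 8.44 (6.09 to 12.0) in the mesothelial-like cells, 0.295 (0.286 to 0.304) in macrophages, 0.312 in carcinoma cells and 0.955 (0.499 to 1.82) in fibroblasts. In the 43 cells that met no other class it was 13.4 (8.16 to 23.3), and Cd74 was at 1086 CPM there. Of the 48 cells with 2 or more class II UMIs, 28 had 0 UMIs of Lyz2, and 24 had 0 UMIs of Lyz2 and of the C1q chains. The mesothelial-like cells thus held more class II RNA per Lyz2 RNA than any of these classes, also without the cells that met the macrophage class.

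The promoters of these genes are shown because the class II genes were high together. The 250 bases before the start of transcription of H2-Aa and H2-Eb1, from RefSeq on build GRCm38.p6, hold the letters CTGATTGG, printed in capitals. They fit the core of the Y box, an inverted CCAAT element known in class II promoters. The search covered both strands and this motif alone. It was found in 1258 of 32851 promoters of the same length (3.83%). In H2-Aa (chr17:34287824-34288073, minus strand) the motif starts 51 bases before the start site, and in H2-Eb1 (chr17:34305617-34305866, plus strand) 62 bases before it. The windows of H2-DMa and H2-DMb1 did not hold these letters. H2-Ab1 and Cd74 were not searched.
H2-Aa: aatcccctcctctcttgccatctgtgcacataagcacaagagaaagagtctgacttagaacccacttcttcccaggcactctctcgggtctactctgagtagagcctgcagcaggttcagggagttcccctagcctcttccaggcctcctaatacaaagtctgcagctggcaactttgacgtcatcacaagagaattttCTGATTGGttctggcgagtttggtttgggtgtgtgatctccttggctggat
H2-Eb1: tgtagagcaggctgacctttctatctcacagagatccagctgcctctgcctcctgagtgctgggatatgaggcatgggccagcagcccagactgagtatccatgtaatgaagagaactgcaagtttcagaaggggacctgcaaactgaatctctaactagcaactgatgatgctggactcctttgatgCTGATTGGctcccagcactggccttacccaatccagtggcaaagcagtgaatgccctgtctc

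MHC class I genes, which show peptides to CD8 T cells, were also high. B2m, the shared light chain, had a median of 14 UMIs per cell, was seen in 62 of 63 cells and stood at 3150 CPM (2974 to 3335 CPM), against 1023 CPM in fibroblasts, 363 CPM in carcinoma cells and 1894 CPM in macrophages. H2-K1 was at 1024 CPM against 180 CPM in fibroblasts and 433 CPM in macrophages. H2-D1 was at 1032 CPM against 194 CPM. Of 5 class I genes tested against fibroblasts, 4 were higher, beside 6.97% of all genes. Psmb8 of the immunoproteasome was among them, at 202 CPM against 60.0 CPM. Tapbp, which loads peptides, was at 159 CPM against 109 CPM (ratio 1.46, 0.928 to 2.32). Ifi27l2a, an interferon-induced gene, was at 721 CPM in 56 of 63 cells against 70.5 CPM in fibroblasts and 5.24 CPM in carcinoma cells.

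Epithelial genes were also seen in cells that should lack them. Krt8 and Krt18, the keratins of simple epithelia, were at 997 and 1427 CPM in the mesothelial-like cells, and at 944 and 1427 CPM in macrophages. Carcinoma cells had 3515 and 4521 CPM, and fibroblasts 568 and 804 CPM. The summed levels of the mesothelial-like cells were thus close to those of macrophages and 1.76 (1.46 to 2.13) and 1.77 (1.52 to 2.08) times those of fibroblasts, below 2-fold. After thinning to 2500 UMIs per cell, Krt8 was seen in 74.6% (62.1 to 84.7%) of the mesothelial-like cells, 43.2% (37.6 to 49.0%) of macrophages and 43.1% of fibroblasts, and Krt18 in 61.9% (48.8 to 73.9%), 44.2% and 41.4% (28.6 to 55.1%). The intervals of the mesothelial-like cells and the macrophages did not overlap for Krt8, while those for Krt18 overlapped with both classes. In the 43 cells that met no other class Krt8 was at 531 CPM and Krt18 at 541 CPM. Whether free RNA or droplets with more than 1 cell gave these keratin UMIs was not tested. Krt19 was at 708 CPM (626 to 798 CPM) against 354 CPM in macrophages and 226 CPM in fibroblasts, and at the same thinned depth 66.7% of the mesothelial-like cells, 31.0% of fibroblasts and 32.0% of macrophages had a UMI of it. Median depths before thinning were 4831, 4226 and 3781 UMIs. The ratio of Krt19 to Epcam UMIs was 1.37 (1.20 to 1.57) in macrophages, 1.44 in carcinoma cells and 2.05 (1.66 to 2.55) in the mesothelial-like cells, above both. It was 1.31 (0.886 to 1.94) in fibroblasts and 1.29 (0.905 to 1.84) in endothelial cells, and these intervals overlapped with that of the mesothelial-like cells. In the 43 cells that met no other class Krt19 was at 517 CPM. Epcam was at 62.2 CPM there, against 345 CPM over all 63, which the choice of these cells by carcinoma class genes, Epcam among them, sets in part.

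Of 22 keratin and epithelial junction genes, 15 passed the filter against fibroblasts. Of these, 7 were higher (Krt7, Krt19, Cldn3, Cldn7, Cldn10, Cldn15 and Dsp) and 0 lower, beside 6.97% of all genes higher and 9.43% lower. In the 43 cells, which were chosen in part by Krt7, Epcam and claudins, 3 of 13 were higher (Krt19, Cldn10 and Cldn15) and 2 lower (Epcam and Jup). For these 43 cells 8.32% of all genes were higher and 12% lower. Claudins seal tight junctions. Cldn10 had 25 UMIs in 17 cells and Cldn15 had 21 UMIs in 18 cells, and both had 0 UMIs in fibroblasts. Set against a limit of 3 counts over the fibroblasts, Cldn10 was at least 6.27-fold higher and Cldn15 at least 5.26-fold higher. Carcinoma cells had 0.874 and 0.397 CPM of them. Cldn7, a carcinoma class gene, was at 111 CPM against 397 CPM in carcinoma cells and at 33.5 CPM in the 43 cells. Cldn3, another class gene, was at 114 CPM against 31.7 CPM in fibroblasts and 289 CPM in carcinoma cells, and its 15 UMIs in 9 of the 43 cells (71.8 CPM) were about as many as the 16 UMIs of Cldn10 there (76.6 CPM). Cldn4 was at 21.2 CPM against 130 CPM in carcinoma cells. Prg4, or lubricin, the lubricant of joints and serous surfaces, had 52 UMIs in 24 cells (138 CPM), 0 UMIs in fibroblasts (at least 13.0-fold higher) and 124 CPM in macrophages. Has1, a hyaluronan synthase, was at 76.9 CPM against 35.3 CPM in fibroblasts, and its ratio of 2.18 stayed below 2-fold once 10 CPM were added.

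**Figure D4:**
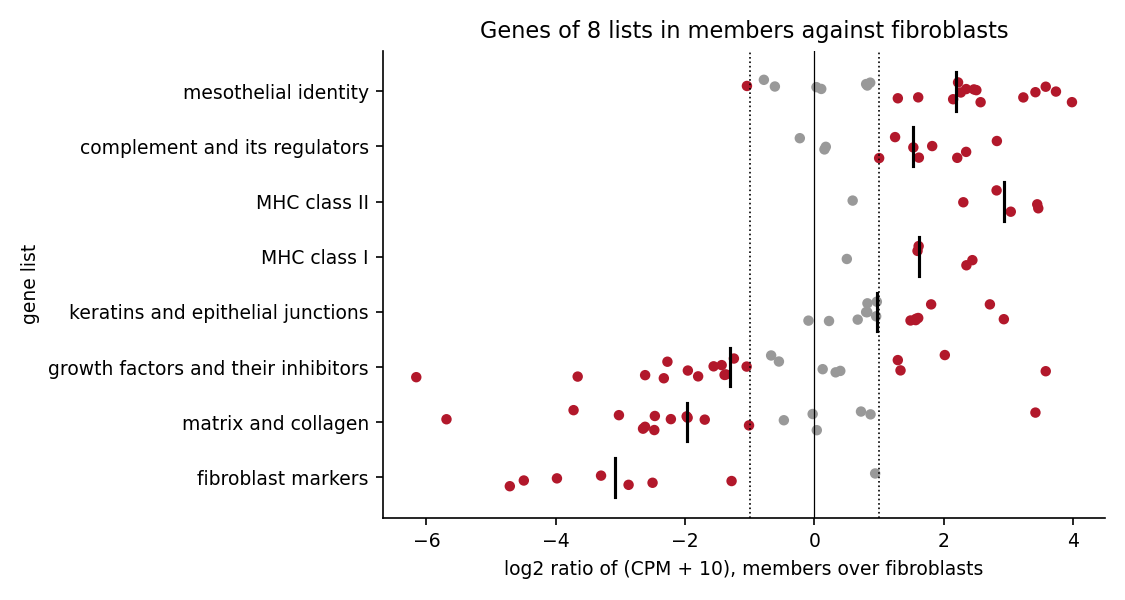
Log2 ratio of (CPM + 10) of the 63 mesothelial-like cells over the 58 fibroblasts (x axis) for the tested genes of 8 lists (y axis), without Upk3b, Nkain4 and the fibroblast class genes. Each point is a gene, red where past 2-fold (dotted lines), and the black bars are medians. Complement, MHC class II and MHC class I genes lie to the right, with list medians of 1.53, 2.93 and 1.61, and matrix genes to the left, with a median of -1.97.

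Most matrix genes were lower than in fibroblasts. All 23 genes of the matrix and collagen list passed the filter. Without Col1a1, Col1a2, Col3a1, Dcn and Lum, which chose the fibroblasts, 12 of 18 were lower, 1 (Efemp1) was higher and 5 were neither, beside 9.43% of all genes lower. The values of the genes that chose the fibroblasts are a description. Col1a1 was at 316 CPM against 3297 CPM in fibroblasts, Col1a2 at 992 CPM against 3720 CPM, and Col3a1 at 2177 CPM against 4962 CPM. Among genes that did not choose them, Sparc was at 1742 CPM against 6802 CPM (ratio 0.256, 0.234 to 0.280), and Fn1, fibronectin, at 848 CPM against 3985 CPM. The genes lowest against fibroblasts were nearly absent from the mesothelial-like cells. Sfrp1, an inhibitor of Wnt signalling, had 1 UMI in 63 cells and 892 CPM in fibroblasts. Mmp2, a gelatinase, had 3 UMIs against 927 CPM, Tnc 2 UMIs against 779 CPM, Thbs2 and Postn 1 UMI each against 437 and 321 CPM, and Col15a1 0 UMIs against 215 CPM. Acta2, smooth muscle actin, was at 29.2 CPM against 1009 CPM (ratio 0.0289, 0.0143 to 0.0525). Tagln had 31 UMIs in 5 cells, 25 of them in 1 cell.

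Of 16 genes of mesothelial-to-mesenchymal transition, 13 passed the filter against fibroblasts. Of these, 7 were lower and 0 higher, beside 9.43% of all genes lower and 6.97% higher. Of 8 tested fibroblast markers, without the class gene Pdgfra, 7 were lower, beside the same 9.43% of all genes, and Has1 was the exception. The receptors Pdgfra and Pdgfrb had 2 and 3 UMIs, against 56.4 and 91.7 CPM in fibroblasts. Against carcinoma cells, in contrast, 16 of 19 tested matrix genes were higher, beside 8.92% of all genes. The 10 genes with the lowest ratio against carcinoma cells ranged from 0 to 244 CPM in the mesothelial-like cells and from 66.0 to 2525 CPM in carcinoma cells. Among them Npy, neuropeptide Y, was at 21.2 against 628 CPM, and Mmp7, an epithelial metalloproteinase, at 26.5 against 441 CPM.

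More growth factors were lower than higher when set against fibroblasts. Of 27 growth factors and inhibitors, 22 passed the filter, 4 were higher (Fgf1, Gas6, Gas1 and Rspo1) and 13 were lower, beside 6.97% of all genes higher and 9.43% lower. Gas6, the ligand of the Axl family of receptors, had up to 65 UMIs in a cell, a median of 3, and 878 CPM (786 to 977 CPM) against 353 CPM in fibroblasts and 51.5 CPM in carcinoma cells. Its log2 ratio to fibroblasts was 1.29, and 0.99, below 2-fold, after thinning. Fgf1 was at 159 CPM against 31.7 CPM, whereas Fgf2 was at 37.1 CPM against 173 CPM. Tgfb1 was at 39.8 CPM against 240 CPM, and Ctgf at 82.2 CPM against 310 CPM. Of 18 chemokines and cytokines tested against fibroblasts, 6 were lower, beside 9.43% of all genes lower. Only 1, Il18 at 79.6 CPM against 17.6 CPM, was higher, which is no larger a share than the 6.97% of all genes. Ccl2, which attracts monocytes, was at 451 CPM against 561 CPM in fibroblasts (ratio 0.804, 0.644 to 1.00) and 23.6 CPM in carcinoma cells. Cxcl13 rested on 2 cells, with 47 of its 68 UMIs in 1 of them.

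Protease inhibitors and genes of fibrinolysis differed in both directions. Of 18 such genes, 16 passed the filter against fibroblasts, 3 were higher (Slpi, Serpinb2 and Thbd) and 4 lower (Serpine2, Serpinf1, Timp1 and Procr), with a median log2 ratio of -0.52 against -0.03 over all genes, beside 6.97% of all genes higher and 9.43% lower. Slpi, the secretory leukocyte protease inhibitor, had a median of 4 UMIs per cell, 390 in the highest cell and a summed level of 5587 CPM against 585 CPM in fibroblasts and 1528 CPM in macrophages. That level depended on few cells, since 3 cells held 46.3% of its UMIs, and its log2 ratio to fibroblasts of 3.23 became 5.32 against the 49 fibroblasts. Thbd, thrombomodulin, which curbs clotting, was at 92.8 CPM in 21 cells against 17.6 CPM in fibroblasts. Timp1, an inhibitor of metalloproteinases, was at 761 against 4091 CPM, Serpinf1 at 79.6 against 733 CPM, Serpine2 at 50.4 against 250 CPM and Procr, the protein C receptor, at 133 against 317 CPM.

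The cells varied among themselves. Of 522 genes with at least 100 UMIs in the 63 cells, 198 had a variance at least 2 times that of Poisson counting at the same depths, and the median over the 522 genes was 1.66 times. The largest spread was that of Slpi, at 307 times. Several genes of this group are known from gastric or pancreatic epithelium and came from few cells. One cell held 47.7% of the UMIs of Gkn3, 1 held 70.0% of those of Tff1 and 1 held 85.8% of those of Reg3b. Agr2 was seen in 13 cells, and 3 of them held 89.7% of its UMIs. Tff1 was at 1681 CPM over all 63 cells and at 43.1 CPM in the 43 that met no other class. Fth1, ferritin heavy chain, was seen in every cell and spread 58.4 times, with a median of 131 UMIs and 713 in the highest cell. It stood at 31168 CPM against 11672 CPM in fibroblasts and 4206 CPM in carcinoma cells. Dcn (34.0 times) and Rarres2 (18.5 times) varied as well, and Dcn was seen in 59 and Rarres2 in 56 cells.

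Part of this variation followed the UMIs of the rule. C3 was at 1219 CPM (1019 to 1447 CPM) in the 18 cells with 2 UMIs and at 5604 CPM (5185 to 6047 CPM) in the 19 cells with 10 or more. Rarres2 was at 298 and 2175 CPM, and Gas6 at 205 and 1414 CPM. Epcam ran the other way, at 735 CPM and 102 CPM (52.5 to 177 CPM), and so did Ccl2, at 865 and 50.8 CPM. Cd74 was at 223 CPM in cells with 2 UMIs, at 1119 CPM with 3 to 4, at 1297 CPM with 5 to 9 and at 1151 CPM with 10 or more. The 15 carcinoma markers summed to 9585 CPM in the cells with 2 UMIs, 1712 CPM with 3 to 4, 7425 CPM with 5 to 9 and 1888 CPM with 10 or more, and the part that carcinoma RNA has in these levels was not tested. Over the 63 cells, class II level and the level of 6 complement genes (C1ra, C1s1, C2, C3, C4b and Cfb) had a Spearman's rho of 0.63. Both are shares of the same UMIs of each cell. Class II level and Lyz2 had a rho of 0.12.

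**Figure D5:**
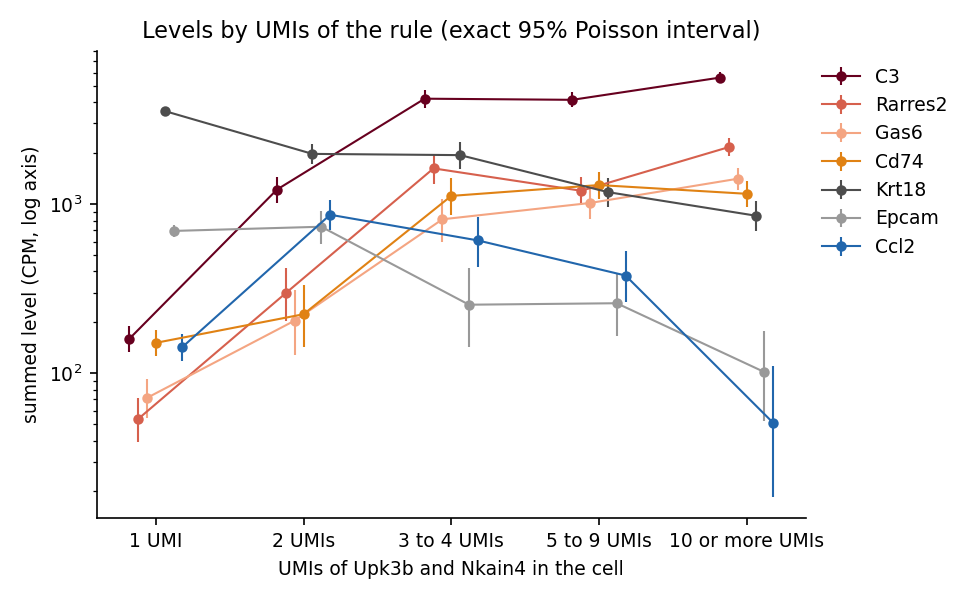
Summed level (y axis, CPM on a log axis, exact 95% Poisson intervals) of 7 genes in cells of the medium tumor grouped by UMIs of Upk3b and Nkain4 (x axis), the group with 1 UMI lying outside the rule. C3, Rarres2 and Gas6 are lowest with 1 UMI and highest with 10 or more, while Epcam and Krt18 are at 102 and 855 CPM in the last group, below their levels with 2 UMIs.

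In the large tumor 0 of 1533 cells had 2 or more UMIs of Upk3b and Nkain4, which allows a share of up to 0.196% when 3 counts are taken as the limit, and 8 cells had 1 UMI. That table is shallower, with 2239012 UMIs in all and a median of 1037 per cell, against 20301669 in the medium tumor. With every cell thinned to 500 UMIs, 5 of 2812 cells of the medium tumor (0.178%, 0.0578 to 0.414%) and 0 of 1533 cells of the large tumor met the rule. At this depth a difference in the share that met the rule was not detectable. With 1 or more UMIs the thinned shares were 31 of 2812 cells (1.10%, 0.750 to 1.56%) and 2 of 1533 cells (0.130%, 0.0158 to 0.470%), and these intervals did not overlap. Summed over all cells, Upk3b was at 7.78 CPM (6.62 to 9.10 CPM) in the medium and 1.34 CPM (0.276 to 3.92 CPM) in the large tumor, and Nkain4 at 17.9 CPM and 2.23 CPM (0.725 to 5.21 CPM). Rarres2 was at 32.9 and 3.57 CPM, C3 at 119 and 23.7 CPM, Igfbp6 at 17.2 and 3.13 CPM, and Dcn at 189 and 58.5 CPM, all with intervals that did not overlap. For Wt1, at 7.04 and 4.47 CPM (2.14 to 8.21 CPM), and for Upk1b, at 4.48 and 4.47 CPM (2.14 to 8.21 CPM), the intervals overlapped, and so did those of Lrrn4, Rspo1, Gpm6a and Bnc1. Of the 8 cells with 1 UMI, 3 also had a UMI of Upk1b, Lrrn4, Rspo1, Wt1 or Gpm6a. With 1 tumor of each size, size cannot be told apart from the animal, the dissection or the depth.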

How the data were processed

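Single-cell RNA libraries of 1 medium and 1 large tumor were analysed. The authors aligned reads and counted UMIs with Cell Ranger on mm10 (per the labels, version not given in the sources used here) and deposited whole-number counts per gene and cell without normalization, with 4 technical replicates pooled per table. All 13 mitochondrial genes are at 0 UMIs in the medium tumor. UMIs were summed over cells of a group and scaled to CPM, with Poisson, binomial and conditional binomial intervals at 95% (Python 3.11.15, numpy 2.4.6, pandas 2.3.3, scipy 1.17.1, figures with matplotlib 3.10.9). The comparison step was tested on simulated data. Every deposited cell was used and no doublet caller was run. Instead, values were recomputed without 20 members that met another class. Genes were named from the 5 working markers, the 25 genes highest against all other cells, the 10 highest and 10 lowest against fibroblasts and against carcinoma cells, the 15 with the largest spread, and the gene lists, and not every gene of these is described. Members, lists and markers were chosen with earlier results of these data known. Of 27775 gene rows, 95.3% had a symbol in GENCODE M21. Rows with the same symbol (39 symbols) were not merged. Alternatives were other pseudocounts, filters, scalings, depths and rule thresholds. Some items are not reported here.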

Additional observations from a re-analysis of the deposited data

How the results depend on the processing

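No paired analysis was possible because the technical replicates of each tumor are pooled in 1 table. Counts of genes past 2-fold depended on the pseudocount and the filter. Higher and lower genes numbered 461 and 357 against all other cells, 382 and 517 against fibroblasts, 493 and 429 against carcinoma cells, and 579 and 470 against macrophages. With 50 CPM added they numbered 237 and 105, 137 and 198, 269 and 126, and 281 and 247. With no filter they numbered 700 and 606, 763 and 942, 784 and 664, and 928 and 803. At a mean CPM of at least 100 they numbered 128 and 100, 97 and 143, 141 and 116, and 152 and 150. Lower genes against all other cells became 543 with 1 CPM added. Lower genes against all other cells and against carcinoma cells became 596 and 670 after thinning to 2500 UMIs, 624 and 670 with 5 or more UMIs in the members, and 714 and 757 without members that met another class, and the cause was not tested. The rule found 156 cells with 1 or more UMIs, 45 with 3 or more, 33 with 5 or more, 43 with both genes and 42 after thinning to 2500 UMIs, and in the large tumor 8 cells with 1 or more. Genes spread at least 2 times Poisson numbered 118 of 286 without members that met another class and 89 of 225 after thinning, since fewer genes reach 100 UMIs. Of 655 values of named genes under these alternatives, 0 reversed and 193 lay outside the counting interval of the main value. Only values of genes past 2-fold in the main comparison could count as reversed. An alternative added after seeing the data kept 49 fibroblasts without UMIs of Upk1b, Lrrn4, Rspo1, Gpm6a or Bnc1, and the log2 ratio of Cd74 was then 4.55, against 3.46. After thinning, Cd74 was 0.90 higher against all other cells on the log2 scale, below 2-fold, against 1.49 without thinning. With 1 tumor, the spread between animals is unknown.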

Other observations

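The 13 immediate early genes, which cells switch on within minutes of stimulation or handling, summed to 9164 CPM in the mesothelial-like cells, against 5716 CPM in fibroblasts and 5011 CPM in all other cells. Hspa1a was at 1318 CPM against 515 CPM in fibroblasts, Jun at 1138 against 790 CPM and Egr1 at 1130 against 673 CPM. The sum was similar in cells with 2 UMIs of the rule (8608 CPM) and with 10 or more (9243 CPM). The 18 cell cycle genes summed to 952 CPM, against 949 CPM in fibroblasts and 1662 CPM in all other cells, and were at 745 CPM in the cells with 10 or more UMIs. T and NK cell markers had 0 UMIs in the mesothelial-like cells, and the 10 endothelial markers summed to 95.5 CPM against 141 CPM in fibroblasts.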
